A study of Tupaia belangeri chinensis with 36 samples.

Results

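miR-203 and miR-205 are microRNAs, short RNAs that lower the output of the messenger RNAs they pair with, and both are best known from epithelia. They were followed here through testis, caput and cauda of male Chinese tree shrews, caput being the head of the epididymis, next to the testis, and cauda its tail, where sperm are stored. Each tissue was sampled once outside the breeding season (NR, non-reproductive) and once within it (R, reproductive). The members are all entries of the deposited miRNA table whose names begin with mmu-miR-203 or mmu-miR-205. There were 3 of 1210 entries in all: mmu-miR-203-3p, mmu-miR-205-5p and mmu-miR-205-3p, where 5p and 3p name the arm of the hairpin precursor from which the mature strand is cut. Entries were picked by name, and the names to follow were proposed with earlier results of these data known.

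All animals were sexually mature males of 1.5 to 2 years with no treatment named in the labels, collected in December 2023 (NR) or April 2024 (R), so season and collection date cannot be told apart. Small RNA was sequenced with single reads of 50 nt, and the design names 3 biological replicates for each of 6 groups, named by tissue and season (CAPUT-NR is the caput outside the breeding season). Whether the tissues of a given replicate number came from 1 animal is not given in the sources used here. In 2 columns, TESTIS-NR 2 and CAPUT-NR 2, the counts of all but the rarest miRNAs, which were not checked, were averages of their group's remaining columns, so 16 measured libraries were used: 5 of testis, 5 of caput and 6 of cauda. They held 2166152 to 14756858 miRNA counts each. Levels are given as CPM, counts scaled to the miRNA total of a library. Each value from whole tissue joins many cell types, so fewer cells of a type and less RNA per cell cannot be told apart.

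As background, miR-205 is abundant in the basal layer of stratified and pseudostratified epithelia, for example in skin, breast and prostate, and it acts with the miR-200 family against the transcription factors ZEB1 and ZEB2, which drive the loss of epithelial traits. miR-203 is known from skin, where it rises as keratinocytes leave the basal layer and represses p63, a master regulator of basal cells. The epididymal duct is lined by a pseudostratified epithelium of tall principal cells with basal cells at its foot, while the seminiferous tubules of the testis hold germ cells and Sertoli cells. The basal cell genes that would test the name given to these miRNAs, such as TP63 and KRT5, were not analysed here, so no cell of origin is assigned.

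miR-205-5p, the main strand of miR-205, was among the abundant miRNAs of the epididymis and was low and uneven in the testis. Cauda libraries held 15624, 11336 and 14605 CPM in NR and 12075, 11085 and 8023 CPM in R. Caput libraries held 10195 and 6769 CPM in NR and 6122, 4742 and 7910 CPM in R. The testis held 521.7 and 40.6 CPM in NR, and 152.9, 186.4 and 3.69 CPM in R. Every epididymal library lay above every testis library, though how many of all miRNAs separate in this way was not counted. By rank among the miRNAs of a library it was number 12 to 21 in the cauda, 19 to 30 in the caput and 74 to 400 in the testis. At its highest, in CAUDA-NR 1, it took 1.56% of all miRNA counts.

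**Figure D1:**
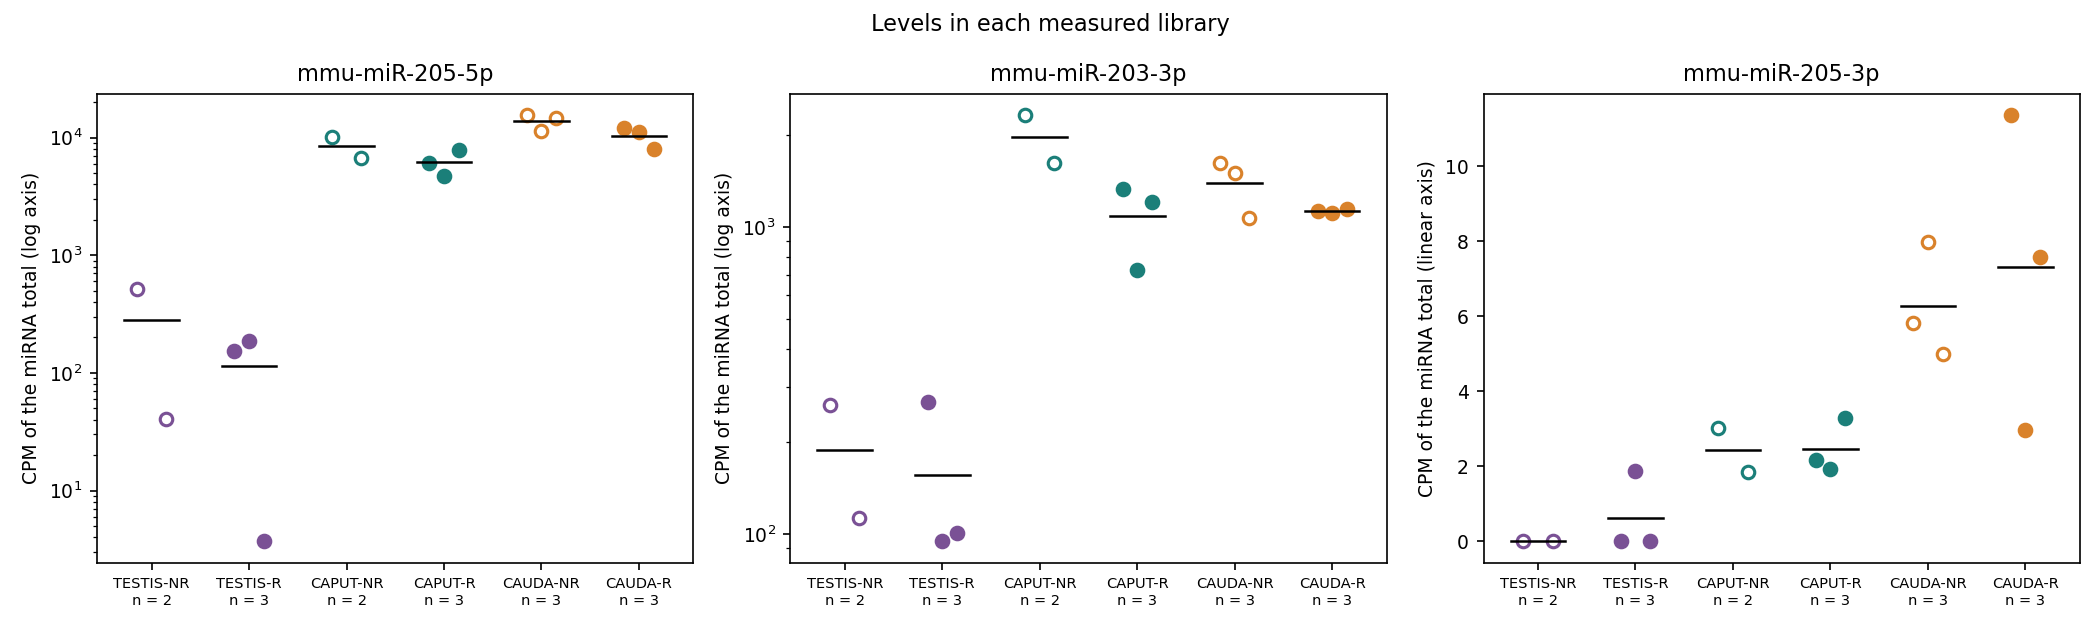
Levels of the 3 miRNAs in each of the 16 measured libraries, in CPM of the library's miRNA total, by tissue and season; open points are NR and filled points R libraries, and bars are group means. The axis is logarithmic for miR-205-5p and miR-203-3p and linear for miR-205-3p. The 5 testis libraries lie below all 11 epididymal libraries for miR-205-5p and miR-203-3p, and the share of all miRNAs that do so was not counted.

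The order of the 6 group means of miR-205-5p ran from CAUDA-NR (13855 ± 2240 CPM, SD, n = 3) over CAUDA-R (10394 ± 2112, n = 3), CAPUT-NR (8482 ± 2423, n = 2) and CAPUT-R (6258 ± 1589, n = 3) to TESTIS-NR (281.1 ± 340.2, n = 2) and TESTIS-R (114.3 ± 97.3, n = 3). Neighbours in this order overlapped in their libraries, except CAPUT-R and TESTIS-NR. This order is that of CPM of library totals. With TMM factors, which scale libraries to each other, CAPUT-NR (10962 CPM) came before CAUDA-R (10101 CPM). Between CAPUT-R and TESTIS-NR the lowest caput library was still 9.09 times the highest testis library.

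miR-203-3p was less abundant and separated the tissues by a smaller factor. Caput libraries held 2318 and 1614 CPM in NR and 1328, 725.0 and 1202 CPM in R. Cauda libraries held 1618, 1497 and 1072 CPM in NR and 1123, 1109 and 1145 CPM in R. Testis libraries held 263.7 and 112.7 CPM in NR and 269.8, 94.6 and 101.1 CPM in R. Again no epididymal library reached down to a testis library, and the lowest caput value was 2.69 times the highest testis value. How many of all miRNAs separate in this way was not counted here either. The 3 CAUDA-R libraries were within 1.03-fold of each other, the tightest group of this miRNA, while the caput spread over 3.20-fold.

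By group mean, miR-203-3p was highest in CAPUT-NR (1966 ± 498.0 CPM, SD, n = 2), then in CAUDA-NR (1395 ± 286.7, n = 3), CAUDA-R (1126 ± 18.0, n = 3), CAPUT-R (1085 ± 318.1, n = 3), TESTIS-NR (188.2 ± 106.7, n = 2) and TESTIS-R (155.2 ± 99.3, n = 3). The ranges of neighbouring groups overlapped, except between CAPUT-R and TESTIS-NR. With TMM factors CAPUT-R (1506 CPM) came before CAUDA-NR (1392 CPM) and CAUDA-R (1088 CPM), so the order within the epididymis depends on the scaling for both miRNAs. CAUDA-NR for miR-205-5p and CAPUT-NR for miR-203-3p had the highest mean under both scalings.

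miR-205-3p, the minor strand of the same hairpin, was near the limit of detection. It had 2.97 to 11.4 CPM in the cauda and 1.86 to 3.28 CPM in the caput, from 14 to 109 reads per library. In the testis it had 9 reads, 1.87 CPM, in TESTIS-R 2 and 0 reads in the other 4 libraries. A floor of 3 counts over both TESTIS-NR libraries together corresponds to 0.402 CPM, so by pooled counts CAPUT-NR was at least 6.35-fold higher and CAUDA-NR at least 16.6-fold higher than TESTIS-NR. TESTIS-R 2, at 1.87 CPM, lay just above CAPUT-NR 3, at 1.86 CPM, so testis and caput overlapped for this strand by library totals. With TMM factors TESTIS-R 2 had 1.33 CPM and the lowest caput library 1.90 CPM, with no overlap. By library totals all cauda libraries were above all testis libraries, a separation whose share among all miRNAs was not counted. Such floors and the intervals on shares below cover counting error only.

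In the epididymis the minor strand made up a small share of miR-205, from 0.0268% (exact Clopper-Pearson 95% interval 0.0166% to 0.0410%) in CAUDA-R 2 to 0.0945% (0.0721% to 0.122%) in CAUDA-R 3. In other words, 1057 to 3727 reads of the 5p strand were counted per read of the 3p strand. In TESTIS-R 2 the share was 0.996% (0.456% to 1.88%), above all 11 epididymal shares. TESTIS-NR 1 had 2042 reads of the 5p strand and none of the 3p strand, with an upper limit of 0.180%, below the interval of TESTIS-R 2. TESTIS-R 3 had 8 reads of the 5p strand and no read of the 3p strand, which allows a share of up to 36.9% and carries no information on strand use.

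Tissues were compared in pairs with edgeR's quasi-likelihood test with season as a covariate, and p-values were adjusted over all miRNAs tested by Benjamini-Hochberg, with a call at an adjusted p under 0.05. miR-205-5p was higher in the caput than in the testis by 5.99 on the log2 scale (SE 1.14, adjusted p 0.00276), a 63.4-fold difference. In the cauda it was higher by 6.22 (SE 1.11, adjusted p 0.00120), a 74.7-fold difference. miR-203-3p was higher than in the testis by 3.62 in the caput (SE 0.50, adjusted p 6.22e-04), or 12.3-fold, and by 3.08 in the cauda (SE 0.43, adjusted p 3.22e-04), or 8.45-fold. All 5 caput and all 6 cauda libraries were above all 5 testis libraries in each of these 4 comparisons. The share of all miRNAs that separate as fully was not counted, so this is a description only. Against the testis, 47.5% of 537 miRNAs were called in the caput (23.6% higher, 23.8% lower) and 47.6% of 553 in the cauda (24.2% higher, 23.3% lower), so a call by itself is common between these tissues. Scaled by library totals, the caput calls split into 93 higher and 167 lower in place of 127 and 128, as the median of all miRNAs moved from -0.07 to -0.64. The cauda calls split into 127 and 157 in place of 134 and 129, with a median of -0.30 in place of -0.03.

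Markers of other cell types differed from the testis beside the members. In the cauda the muscle miRNAs (miR-1, miR-133 and miR-206) were called higher in 5 of 5, with a median log2 difference of 4.96, the smooth muscle and stromal miRNAs (miR-143 and miR-145) in 4 of 4 (median 2.37), the mesenchymal miRNAs in 5 of 6, the endothelial in 2 of 2, the leukocyte miRNAs in 5 of 8 with 1 lower, and the red blood cell miRNAs in 2 of 5, while the median of all miRNAs was -0.03. The germ cell and ciliated cell miRNAs were called lower in 2 of 5. Within the testis alone 4 muscle, 6 leukocyte and 4 red blood cell miRNAs passed the filter on low counts. The others of these 3 lists passed it only once epididymal libraries were added. In the caput the calls were fewer, with muscle higher in 2 of 4, smooth muscle in 1 of 4, mesenchyme in 3 of 6, leukocytes in 4 of 7 with 1 lower, red blood cells in 1 of 4 and endothelium in 0 of 2, and germ cell miRNAs lower in 3 of 5. Scaled by library totals, the muscle, smooth muscle and red blood cell calls of the caput were lost, and its mesenchymal calls fell to 1. In every comparison mmu-miR-199a-3p and mmu-miR-199b-3p of the mesenchymal list had identical values. The same held for mmu-miR-486a-5p and mmu-miR-486b-5p of the red blood cell list. The tallies and summed levels of these lists count each pair as 2 entries, so they are not separate measurements. The part of these other cell types in the members' differences was not tested.

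By size of change miR-205-5p stood 25th of 537 in the caput and 20th of 553 in the cauda, counted from the miRNA with the largest rise over the testis, and miR-203-3p stood 59th and 71st. Between cauda and testis both calls held in all 20 settings tried. With NR libraries alone, 2 against 2, no miRNA at all was called between caput and testis, and the changes were 5.14 for miR-205-5p (adjusted p 0.129) and 3.69 for miR-203-3p (adjusted p 0.0925), and the other 18 settings kept both calls.

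miR-205-3p was called higher in the caput than in the testis by 3.61 (SE 1.33, adjusted p 0.0496) and in the cauda by 4.73 (SE 1.28, adjusted p 0.0117). The testis held only 9 reads of this strand, all in 1 library, so both changes are set against a testis near 0. Within the testis alone it did not pass the filter on low counts. It entered these 2 comparisons through the epididymal libraries, where it is higher, so the direction of both calls was largely set by the filter. The caput call was lost in 13 of the 17 settings in which the strand could be tested, among them scaling by library totals (adjusted p 0.0987), DESeq2 size factors (0.0568), the replicate block (0.0592), and without any 1 of CAPUT-NR 1, CAPUT-NR 3, TESTIS-NR 1, TESTIS-NR 3, CAPUT-R 2, TESTIS-R 1 or TESTIS-R 3 (0.0771 to 0.138). The cauda call was lost in 1 of 20 settings, with R libraries alone (adjusted p 0.0813). Without TESTIS-R 2, which held the 9 reads, both calls remained. The fitted changes were then 7.30 and 8.41 against a testis at 0 reads and depend on the constant the tool adds to counts.

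**Figure D2:**
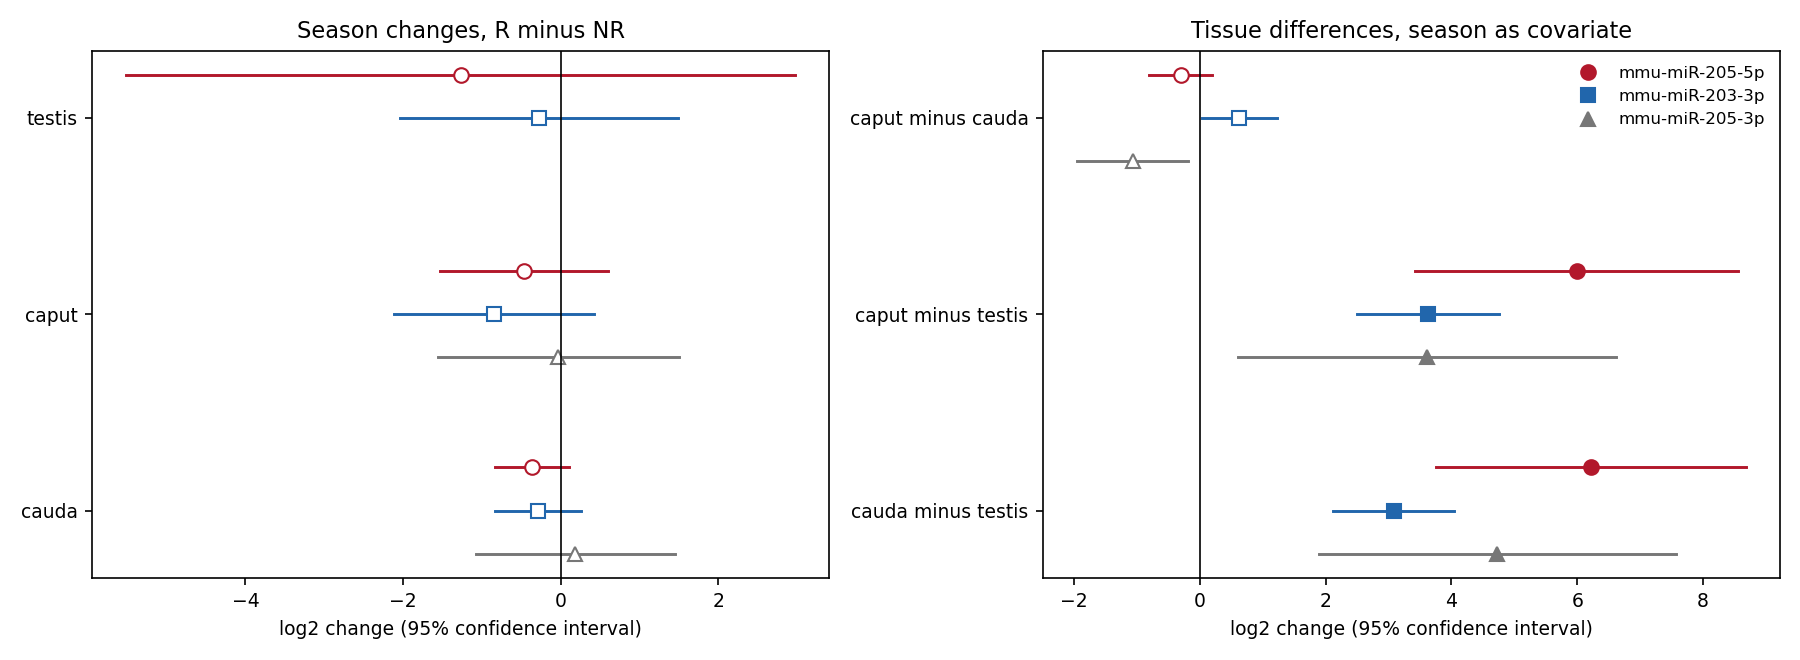
Log2 changes of the 3 miRNAs with 95% confidence intervals, R minus NR within each tissue (left) and between tissues with season as a covariate (right); filled symbols had an adjusted p under 0.05. The comparisons with the testis are filled, at 3.08 to 6.22, and no season change is. miR-205-3p was not tested between seasons in the testis.

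Between caput and cauda no change of a member was called. miR-203-3p had a log2 difference of 0.63 (SE 0.27, 95% interval 0.03 to 1.23, edgeR adjusted p 0.117), miR-205-5p one of -0.30 (SE 0.22, interval -0.80 to 0.20, adjusted p 0.377) and miR-205-3p one of -1.07 (SE 0.40, interval -1.96 to -0.18, adjusted p 0.0772). Of all 535 miRNAs tested, 28% were called, 15.1% as higher and 12.9% as lower in the caput. The scaling matters for this pair. With library totals in place of TMM factors the median change of all miRNAs moved from 0.04 to -0.33, the 81 higher and 69 lower calls became 42 and 90, and miR-205-5p (-0.72, adjusted p 0.0167) and miR-205-3p (-1.47, adjusted p 0.0202) were called lower in the caput. Relative to the median of all miRNAs the difference of miR-205-5p was -0.34 with TMM and -0.40 with library totals, that of miR-203-3p was 0.59 and 0.52, and that of miR-205-3p -1.11 and -1.15. miR-203-3p was called without CAPUT-R 2 (0.82, adjusted p 0.00520), the caput library with its lowest level. CAPUT-R 2 also stood apart in other cell types, with 41447 CPM of endothelial miRNAs against 5349 to 16433 CPM in the other caput libraries, 702.5 CPM of red blood cell miRNAs against 90.8 to 156.2 CPM, and the most smooth muscle miRNAs, 11101 CPM. The summed miR-200 family, the epithelial reference used below, was highest in CAPUT-R 2 as well, at 121066 CPM. The other caput libraries held 91121 to 106681 CPM of it. The part of all these lists in the result was not tested.

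The ratio of miR-205-5p to miR-203-3p reads within a library needs no scaling between libraries. It was 4.398 and 4.195 in CAPUT-NR and 4.61, 6.54 and 6.58 in CAPUT-R. It was 9.66, 7.57 and 13.6 in CAUDA-NR and 10.8, 9.99 and 7.01 in CAUDA-R. All 6 cauda ratios lay above all 5 caput ratios, with means of 9.77 ± 2.38 (SD, n = 6) and 5.26 ± 1.19 (SD, n = 5). The ratio is a description, and no test was made on it. In the testis it was 1.98 and 0.360 in NR and 0.567, 1.97 and 0.0365 in R, so miR-203-3p outnumbered miR-205-5p in 3 of 5 testis libraries and in no epididymal library.

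**Figure D3:**
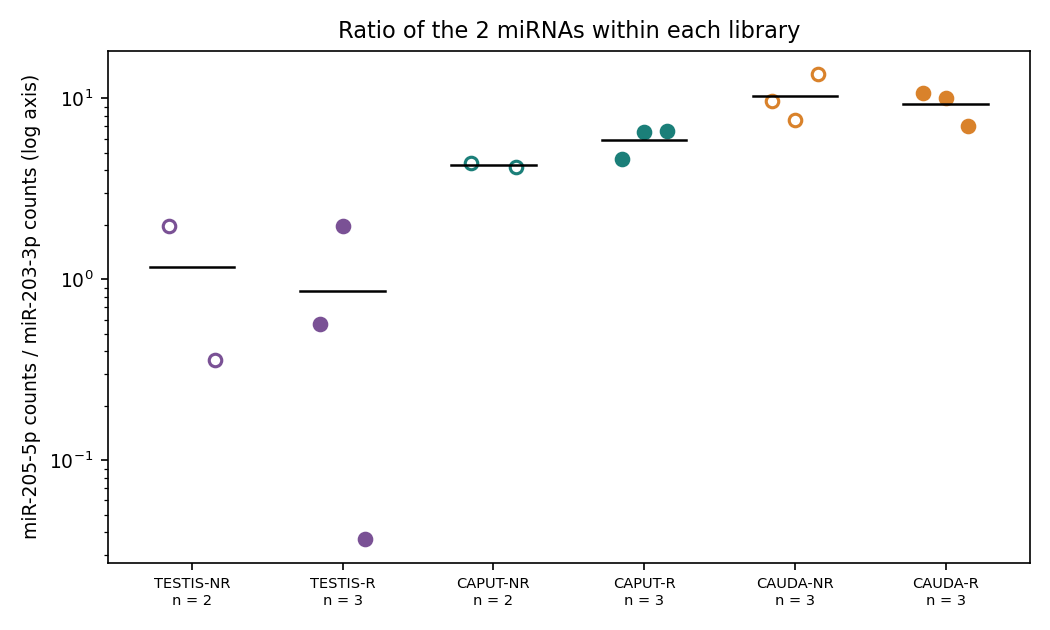
Reads of miR-205-5p per read of miR-203-3p in each measured library on a logarithmic axis, by tissue and season; open points are NR and filled points R libraries, and bars are group means. The cauda libraries lie at 7.01 to 13.6, the caput libraries at 4.19 to 6.58 and the testis libraries at 0.0365 to 1.98.

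The miR-200 family (miR-200a, b and c, miR-141 and miR-429), which maintains the epithelial state in many tissues, was set beside the members as the general epithelial reference. All 10 of its tested entries were called higher in the caput than in the testis and all 10 in the cauda, with median log2 differences of 6.54 and 5.38, where the median of all miRNAs was -0.07 and -0.03. Within the testis alone 8 of the 10 passed the filter on low counts. The others, mmu-miR-200c-5p and mmu-miR-429-5p, passed it only once epididymal libraries were added, so their direction was largely set by the filter. Between the segments 9 of 10 were called higher in the caput, with a median of 0.92 against 0.04 over all miRNAs. Scaled by library totals, 4 of 10 were called higher there and 9 of 10 had a positive difference, with a median of 0.52 against -0.33, while the 10 calls against the testis held in both segments. The summed family held 91121 to 121066 CPM in caput libraries and 62715 to 96639 CPM in cauda libraries. miR-205-5p, with a difference of -0.30, did not share this lean to the caput, but whether its difference departs from that of the family was not tested. Per 100 reads of the miR-200 family, the cauda held 10.4 to 18.9 reads of miR-205-5p and the caput 3.92 to 10.5, and of miR-203-3p the cauda held 1.16 to 2.39 and the caput 0.599 to 2.40. The testis, where the family itself was low, held 1.75 to 23.0 of miR-205-5p, a range that spans both segments. Of miR-203-3p it held 7.41 to 47.8, above both segments.

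The miR-200 family varied widely among testis libraries as well. The summed family had 3559 CPM in TESTIS-NR 1, 2237 in TESTIS-R 1, 811.8 in TESTIS-R 2, 281.5 in TESTIS-NR 3 and 211.4 in TESTIS-R 3. miR-205-5p was likewise highest in TESTIS-NR 1 and lowest in TESTIS-R 3, with TESTIS-R 2 above TESTIS-R 1 in between. miR-203-3p formed a high pair, TESTIS-NR 1 and TESTIS-R 1, which were also the libraries with the most miR-200, and 3 lower libraries, among which TESTIS-R 2 had the lowest level but the most miR-200. With 5 libraries no correlation is given, and the part of epithelial cells in these levels was not tested.

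Relative to its own epididymal mean, each testis library held more miR-203-3p than miR-205-5p or miR-200. Its level was 19.7% of the mean of the 11 epididymal libraries in TESTIS-NR 1, 8.41% in TESTIS-NR 3, 20.1% in TESTIS-R 1, 7.05% in TESTIS-R 2 and 7.54% in TESTIS-R 3. For miR-205-5p the same shares were 5.29%, 0.411%, 1.55%, 1.89% and 0.0374%. For the miR-200 family they were 3.98%, 0.315%, 2.50%, 0.908% and 0.237%. The share of miR-203-3p was the highest of the 3 in 5 of 5 testis libraries.

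**Figure D4:**
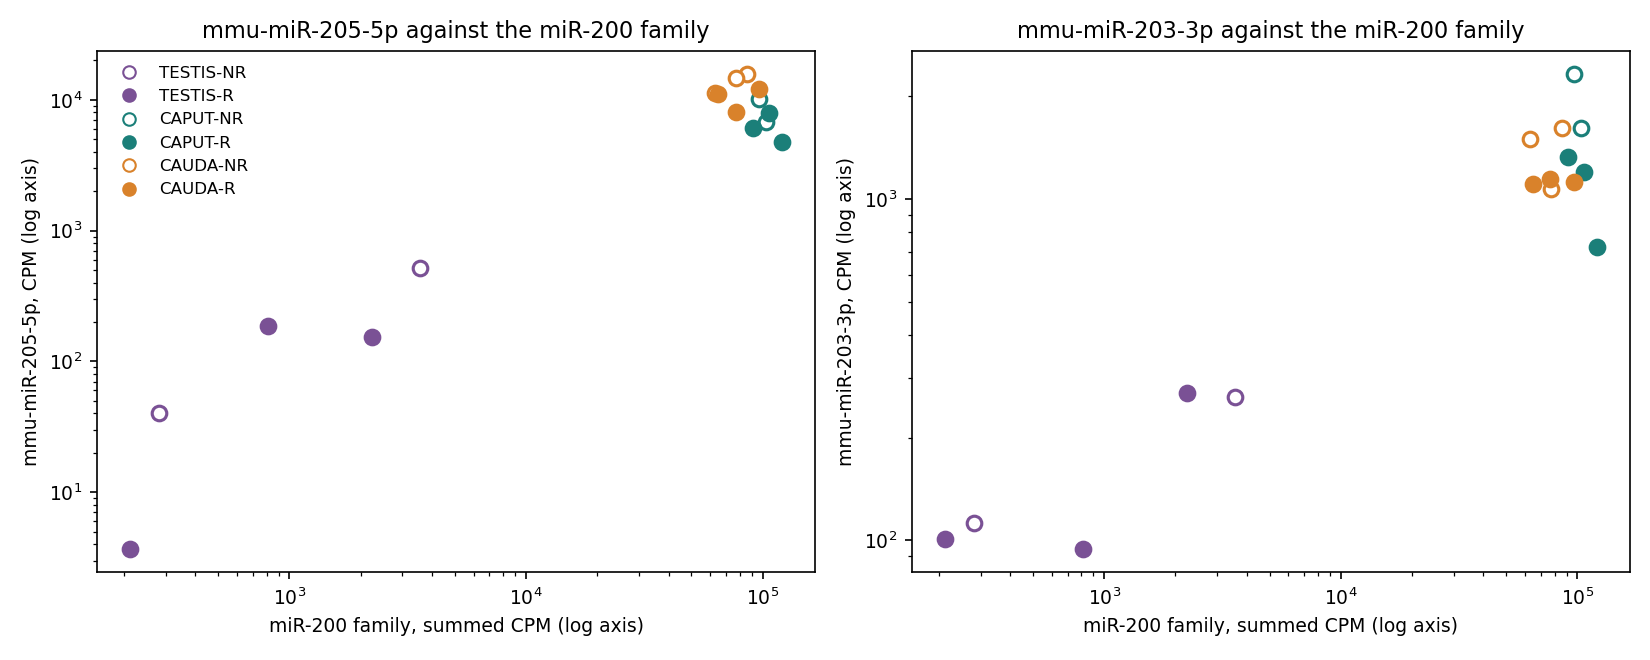
miR-205-5p (left) and miR-203-3p (right) against the summed miR-200 family, all in CPM on logarithmic axes, 1 point per measured library. The epididymal libraries sit at 62715 to 121066 CPM of miR-200 and the testis libraries at 211.4 to 3559 CPM, where miR-203-3p stays between 94.6 and 269.8 CPM and miR-205-5p spans 3.69 to 521.7 CPM.

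The second question was whether season changes these miRNAs, which was tested as R minus NR within each tissue. No season change of any member was called. Mean CPM of miR-205-5p and of miR-203-3p was lower in R in all 3 tissues, but each fitted interval included 0. In the cauda miR-205-5p had a log2 change of -0.37 (SE 0.19, interval -0.83 to 0.10, edgeR adjusted p 0.353) and miR-203-3p of -0.29 (SE 0.22, interval -0.83 to 0.26, adjusted p 0.498). These were the most precise season estimates, with 3 libraries per season, and 3.08% of 455 miRNAs passed the test there, 2.2% as higher and 0.879% as lower in R. That count of 14 is not stable, with 53 by DESeq2, 0 without CAUDA-NR 1 and 24 without CAUDA-NR 3. With the replicate number as a block, which does not pair animals across seasons, the count was 0. miR-205-3p had a change of 0.19 in the cauda (SE 0.51, adjusted p 0.876).

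In the caput miR-203-3p had a log2 change of -0.85 (SE 0.48, interval -2.12 to 0.42, edgeR adjusted p 0.778). By library totals both CAPUT-NR libraries were above all 3 CAPUT-R libraries, 1966 against 1085 CPM in the mean. With TMM factors computed over all 16 libraries the groups overlapped, since CAPUT-R 1 (2232 CPM) lay above CAPUT-NR 3 (2011 CPM). The test computes its own TMM factors from the caput libraries alone, and overlap under those was not examined. No miRNA of 534 was called in the caput by edgeR (0%), where 24 had an unadjusted p under 0.05 and DESeq2 called 15. miR-205-5p had a change of -0.46 (SE 0.41, interval -1.53 to 0.60, adjusted p 0.901) and miR-205-3p of -0.03 (SE 0.58, adjusted p 0.991).

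In the testis the season estimates had the widest intervals of the 3 tissues for both leading strands. miR-205-5p had a log2 change of -1.27 (SE 1.65, interval -5.52 to 2.98, edgeR adjusted p 0.992) and miR-203-3p of -0.27 (SE 0.69, interval -2.04 to 1.49, adjusted p 0.999). miR-205-3p was too low to be tested. edgeR called none of 496 miRNAs (0%), 36 had an unadjusted p under 0.05 and DESeq2 called 24. Both directions turned without TESTIS-NR 1, to 1.32 for miR-205-5p (adjusted p 0.857) and 0.26 for miR-203-3p (adjusted p 0.932). TESTIS-NR 1 also had the lowest summed level of the germ cell miRNAs miR-34b, miR-34c and miR-449, 341.1 CPM against 4704 CPM in TESTIS-NR 3, while the R libraries had 5713 to 7994 CPM, with 1 of the 6 entries, mmu-miR-449b, at 0 in all testis libraries. TESTIS-NR 3 stood apart in the muscle miRNAs, with 1052 CPM against 93.1 to 163.8 CPM in the other testis libraries, and 4 of 4 tested had a negative season change (median -3.35, none called). The part of these differences in the result was not tested.

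The season changes were also compared between tissues as an interaction. None of the 7 differences given for the members was called, and edgeR called no miRNA in any of the 3 pairs (0% of 620, 677 and 713). An unadjusted p under 0.05 was found for 35, 27 and 62 miRNAs, and DESeq2 called 15, 13 and 20. The difference between caput and cauda was -0.57 for miR-203-3p (SE 0.52, interval -1.75 to 0.61, edgeR adjusted p 0.957) and -0.10 for miR-205-5p (SE 0.44, interval -1.11 to 0.91, adjusted p 1.00). Against the testis the intervals for miR-205-5p ran from -3.13 to 5.69 (caput) and from -2.55 to 5.13 (cauda), and for miR-203-3p from -2.44 to 2.03 and from -1.22 to 1.92. For miR-205-3p no difference against the testis is given, because TESTIS-NR held 0 reads of it and the fitted value has no clear meaning.

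The same marker lists were compared between the segments. Muscle miRNAs summed to 3235 to 8158 CPM in the cauda and 179.2 to 927.2 in the caput, and all 5 tested were called lower in the caput. Smooth muscle and stromal miRNAs summed to 23147 to 40039 CPM in the cauda and 5214 to 11101 in the caput, with 4 of 4 called lower in the caput. Of the mesenchymal miRNAs (miR-199 and miR-214) 1 of 6 was called lower, of the leukocyte miRNAs 1 of 8 higher, and of the germ cell and ciliated cell miRNAs 1 of 5 higher. None of 5 red blood cell and 2 endothelial miRNAs was called. Scaled by library totals, the muscle and smooth muscle calls held, and the leukocyte and germ cell calls were lost. These muscle and stromal levels were higher in the cauda beside its higher ratio of miR-205-5p to miR-203-3p, and the part of these cells in the ratio was not tested.

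The miRNAs most like each leading strand were sought by Pearson correlation of log2(CPM + 1) over the 16 libraries among the mouse-named miRNAs with a mean of at least 10 CPM. By this measure the closest to miR-205-5p were mmu-miR-200b-3p (r = 0.97), mmu-miR-10a-5p (0.97), mmu-miR-200a-3p (0.97), mmu-miR-200a-5p (0.96) and mmu-miR-429-3p (0.96). Closest to miR-203-3p were mmu-miR-181d-5p (0.97), mmu-miR-10a-3p (0.97), mmu-miR-10b-3p (0.96), mmu-miR-200b-3p (0.96) and mmu-miR-200a-3p (0.95). By Spearman's rank correlation the lists changed: the 5 named for miR-205-5p had rho of 0.44 to 0.59 and ranks of 61 to 87, and none stayed among the top 5, while 2 of 5 did for miR-203-3p. The points share the gap between testis and epididymis. Within the 11 epididymal libraries the 5 nearest to miR-205-5p had r of -0.74 to -0.45 with it, so the likeness did not extend to the levels inside the epididymis.

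Between the members themselves r was 0.93 over 16 libraries, which placed miR-203-3p 12th among the miRNAs most like miR-205-5p, and 0.35 within the epididymis. Of the nearest to miR-203-3p, mmu-miR-181d-5p had 103.3 to 184.7 CPM in the testis and 452.2 to 669.8 CPM in the epididymis, with r = 0.56 inside the epididymis, where the other 4 had r of 0.22 (mmu-miR-10a-3p), 0.23 (mmu-miR-10b-3p), -0.33 (mmu-miR-200b-3p) and 0.46 (mmu-miR-200a-3p). mmu-miR-10a-5p, the Hox cluster miRNA near the top for miR-205-5p, had 50.3 to 1411 CPM in the testis and 10407 to 20978 CPM in the epididymis.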

How the data were processed

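The authors deposited raw counts per miRNA for 18 small RNA libraries, with no normalization. Tools named in the submitters' processing notes are featureCounts and bedtools. Neither an aligner nor a build is named there. Of the 1210 entries 491 carry a mouse name. A column was taken as averaged where every miRNA with a mean of at least 10 counts in the other 2 columns of its group equalled that mean rounded up or down, which held at 100% in 2 columns and at no more than 2.55% in measured ones. These 2 were left out.

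Counts were tested by edgeR 4.0.16 under R 4.3.3, using its quasi-likelihood test with TMM factors and filterByExpr, on all miRNAs that passed the filter. SEs and intervals follow from the F statistic. The fit was checked on simulated counts with the same spread for every miRNA and without differences of season changes. That check does not cover levels as uneven as those of miR-205-5p in the testis. Levels are CPM of the column total. The naming rule took all members, the whole marker lists and the 5 miRNAs most like each leading strand. The members and lists were chosen with earlier results of these data known. Alternatives were other scalings, no filter, DESeq2 1.42.0, a replicate block, 1 fit of all libraries, averaged columns kept, 1 season alone and each library left out. P-values set a difference against the spread between these libraries, which are not known to come from separate animals across tissues.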

Additional observations from a re-analysis of the deposited data

Results flagged for a closer look

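mmu-miR-205-3p was singled out in the 5 measured testis libraries: TESTIS-R 2 had 1.87 CPM, from 9 reads, and the other 4 had 0. The gap from this library to the others is then the whole range whatever its count, so passing Dixon's 95% critical value of 0.71 follows from the 4 zeros and carries no weight, and the usual chance rate of about 1 in 20 groups does not apply.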

How the results depend on the processing

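Among the refitted changes of the members, 352 kept direction and side of the threshold, 24 turned, 16 lost a call and 6 gained one; 35 counts of called miRNAs moved by over 1.5 times and 114 did not. Scaled by library totals, caput minus cauda gave called values of -1.47 for miR-205-3p and -0.72 for miR-205-5p, caput minus testis gave 2.99 for miR-205-3p with no call, the caput season change of miR-205-3p was 0.012, the cauda minus testis difference of season changes of miR-203-3p was -0.031, and 1 miRNA was called for caput minus testis in the difference of season changes. DESeq2 called 24, 15 and 53 miRNAs by season in testis, caput and cauda, 15, 13 and 20 in the differences of season changes (caput minus cauda, caput minus testis, cauda minus testis), and miR-205-3p at -1.03 for caput minus cauda. For caput minus testis, miR-205-3p lost its call at 3.51 with DESeq2 size factors and 3.61 with no filter on low counts, where the cauda season count was 1. In 1 fit of all libraries the season counts were 1 in the testis and 0 in the cauda, caput minus cauda had 74 calls, cauda minus testis in season changes 1, and the caput season change of miR-205-3p was 0.034. With averaged columns kept, 9 miRNAs were called by season in the testis and 3 in the caput, 1, 6 and 2 in the differences of season changes, miR-205-3p was called at -1.07 for caput minus cauda, and the cauda minus testis difference of season changes of miR-203-3p was -0.033. R libraries alone gave 84 calls for caput minus cauda, and miR-205-3p lost its call at 2.45 (caput) and 3.50 (cauda) against the testis. NR libraries alone gave 51 calls for caput minus cauda, 0 for caput minus testis and 144 for cauda minus testis; miR-203-3p (3.69), miR-205-3p (7.14) and miR-205-5p (5.14) lost their caput minus testis calls.

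With the replicate number as a block, the cauda season count fell from 14 to 0, miR-205-3p lost its caput minus testis call (5.51), and its caput season change and its caput minus cauda difference of season changes turned to 0.30 and 0.081. Across seasons the block joins libraries of different collection dates, so it does not pair animals there. Numbers were not taken as pairs, since the sources do not say whether they mark animals. Deviations of same-numbered libraries, across seasons as well, correlated at -0.16 to 0.26 (median 0.03), over 0.1 in 6 of 36 pairs. Other pairs ran from -0.20 to 0.16 (median -0.01), over 0.1 in 1 of 70. Of 16 libraries 12 were closest to one with their own number. These values are not independent of each other. In a group of 2 libraries the deviations from the mean mirror each other, so each r recurs with its sign turned. The -0.16 and 0.16 above are 1 such value. Deviations within a group also sum to 0, which ties other pairs to same-numbered ones. Whether same-numbered libraries are more alike can therefore not be read from these counts, and it was not tested.

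Leaving out 1 library at a time, the testis season change ran from -0.90 to 0.26 for miR-203-3p and from -2.14 to 1.32 for miR-205-5p. For miR-205-3p the season change ran from -0.41 to 0.42 in the caput and from -0.22 to 0.51 in the cauda, where the count of called miRNAs ran from 0 (without CAUDA-NR 1) to 24 (without CAUDA-NR 3). Caput minus cauda ran from 0.48 to 0.82 for miR-203-3p and from -1.24 to -0.86 for miR-205-3p, which was called without CAUDA-R 2, and caput minus testis from 3.17 to 7.30 for miR-205-3p. Differences of season changes between caput and cauda ran from -0.61 to 0.24 for miR-205-3p and from -0.35 to 0.17 for miR-205-5p, with 0 to 1 calls; between caput and testis from -1.11 to 0.51 for miR-203-3p and from -1.73 to 1.90 for miR-205-5p, with 0 to 2 calls; and between cauda and testis from -0.84 to 1.00 for miR-203-3p and from -1.97 to 2.18 for miR-205-5p, with 0 to 3 calls. A group left with 1 library is assumed to vary like the others. The causes of these shifts were not tested. In the testis miR-205-3p had at most 9 reads in a library, so its changes against the testis rest on few reads.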
